A study of Mus musculus with 6 samples.

Results

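T-bet (Tbx21), Eomes and the genes of the interferon-gamma axis were examined as a set of 9 genes, taken by symbol from a table of 23366 gene symbols, in which all 9 were present. The set holds the related transcription factors Tbx21 and Eomes, the cytokine gene Ifng, both chains of the interferon-gamma receptor (Ifngr1, Ifngr2), both chains of the IL-12 receptor (Il12rb1, Il12rb2), the IL-12 signal transducer Stat4 and the interferon-induced transcription factor Irf1. RNA was sequenced from CD4+GFP+ regulatory T (Treg) cells of 12-day-old Foxp3GFP knock-in mice, whose GFP reports Foxp3, the defining transcription factor of the Treg lineage. The cells were sorted by flow cytometry from liver in 3 libraries and from spleen in 3 libraries, and the tissue is the only labelled difference between the groups, so that every library carries the reporter allele and has the same age. The labels do not say whether a library came from 1 animal or a pool, and the p-values given here reflect no more than library-to-library spread, part of which may be technical.

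In type 1 immunity, antigen-presenting cells release IL-12, which binds a receptor made of Il12rb1 and the inducible chain Il12rb2 and signals through Stat4. T-bet and its relative Eomes then drive Ifng in T cells and NK cells. Interferon-gamma binds Ifngr1 and Ifngr2, and the signal passes through Jak kinases to the nucleus, where Irf1 and other genes are switched on; in Treg cells, T-bet is known for inducing the chemokine receptor Cxcr3.

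Liver libraries held 8437055 to 10951720 counts in genes; spleen 1, spleen 2 and spleen 3 held 1199410, 11408960 and 11358446. Spleen 1 was the shallowest library and correlated less with the other spleen libraries (Pearson's r between 0.942 and 0.943, across genes, which are not independent replicates) than these did with each other (0.985) and than the closest liver and spleen libraries did (0.959). Foxp3, which carries the reporter, was between 1199 and 1304 CPM (counts scaled to 1e6 per library) in liver and between 1103 and 1218 CPM in spleen. Cd4 was between 637 and 693 CPM in liver and between 590.2 and 718 CPM in spleen. Of 8 tested Treg and T cell markers 2 were higher in liver, Ctla4 (log2 fold change 0.89 ± 0.12) and Ikzf2 (0.35 ± 0.10), and 2 were higher in spleen, Il2ra (-0.60 ± 0.09) and Folr4 (-0.71 ± 0.10). The other 4 did not pass, Foxp3 and Cd4 among them. Of all tested genes 9.28% were called higher in liver and 6.90% in spleen.

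The start regions of 4 genes are shown because the results turn on them: the opposed pair Tbx21 and Eomes, the cytokine gene Ifng, and Irf1, whose product is known as a target of interferon-gamma. The sequences are RefSeq windows of build GRCm38.p6, from 250 bases before to 50 bases after an annotated start, at chr11:97115282-97115581, minus strand (Tbx21), chr9:118477939-118478238, plus strand (Eomes), chr10:118440796-118441095, plus strand (Ifng) and chr11:53769764-53770063, plus strand (Irf1), each written 5′ to 3′ on the gene's strand. Capitals mark matches, on either strand, to a Stat-type gamma-activated site (TTCNNNGAA), an interferon regulatory factor site (GAAANNGAA) or a T-box element (GGTGTGA).
Tbx21: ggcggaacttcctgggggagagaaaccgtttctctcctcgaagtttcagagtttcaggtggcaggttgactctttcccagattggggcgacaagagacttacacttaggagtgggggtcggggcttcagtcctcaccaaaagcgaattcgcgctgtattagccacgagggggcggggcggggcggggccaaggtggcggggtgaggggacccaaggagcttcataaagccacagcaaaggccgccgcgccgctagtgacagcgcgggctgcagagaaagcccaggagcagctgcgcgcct
Eomes: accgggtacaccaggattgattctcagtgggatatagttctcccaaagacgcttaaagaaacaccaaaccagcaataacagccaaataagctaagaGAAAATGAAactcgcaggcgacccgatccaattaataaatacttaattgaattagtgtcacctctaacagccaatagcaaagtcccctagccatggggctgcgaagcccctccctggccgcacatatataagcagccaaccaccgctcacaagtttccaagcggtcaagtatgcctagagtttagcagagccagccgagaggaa
Ifng: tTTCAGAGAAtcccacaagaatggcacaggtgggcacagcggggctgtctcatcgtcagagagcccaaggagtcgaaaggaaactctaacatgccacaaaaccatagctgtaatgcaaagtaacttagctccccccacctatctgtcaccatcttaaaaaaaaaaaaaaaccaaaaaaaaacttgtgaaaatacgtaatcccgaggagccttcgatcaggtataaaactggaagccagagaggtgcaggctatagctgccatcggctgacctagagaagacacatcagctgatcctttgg
Irf1: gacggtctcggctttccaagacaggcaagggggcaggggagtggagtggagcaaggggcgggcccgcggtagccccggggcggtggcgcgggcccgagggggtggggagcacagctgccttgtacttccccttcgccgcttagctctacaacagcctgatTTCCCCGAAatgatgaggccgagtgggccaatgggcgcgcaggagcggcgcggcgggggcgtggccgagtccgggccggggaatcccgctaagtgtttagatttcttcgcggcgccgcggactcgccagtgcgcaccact

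Windows were at hand for 8 of the 9 genes, 10 windows in all; Il12rb1 had none. The gamma-activated site letters were in 3 of the 10 windows, those of Irf1 (first base at -90 from the start), Ifng (-249) and Il12rb2 (-123), and in 8.30% of 32851 windows of the same length in the table. The interferon regulatory factor letters were in 2 windows, of Eomes (-154) and of Stat4 (-97), against 8.56% of all windows. The T-box letters were in 0 of the 10 windows, against 3.98% of all. These are matches of letters, and no binding was measured.

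Liver Treg libraries held more Tbx21, Ifng, Ifngr1, Il12rb1 and Irf1 transcript than spleen Treg libraries, and less Eomes and Ifngr2. The tissues were compared with edgeR's quasi-likelihood test over all genes, p-values adjusted by Benjamini and Hochberg, and calls made below 0.05. Of the 8 members that passed the filter on low counts, 5 were called higher in liver, where 9.28% of the 11716 genes tested were, and 2 were called higher in spleen, where 6.90% were. Eomes reached the filter's level of 0.916 CPM in each spleen library but in only 1 liver library, so its place among the tested genes rested on spleen. With no filter all 9 members could be tested, and again 5 were higher in liver (7.93% of 16138 genes), 2 were higher in spleen (6.38%) and Stat4 and Il12rb2 did not pass. The liver libraries all lay above the spleen libraries for the first 5 genes and all below them for Eomes and Ifngr2. Among all tested genes this held for 17.7% and 15.2%. Il12rb2, under the filter and on few counts, was also higher in every liver library, at 0.721, 0.734 and 1.11 CPM against 0, 0.428 and 0.427 CPM in spleen.

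**Figure D1:**
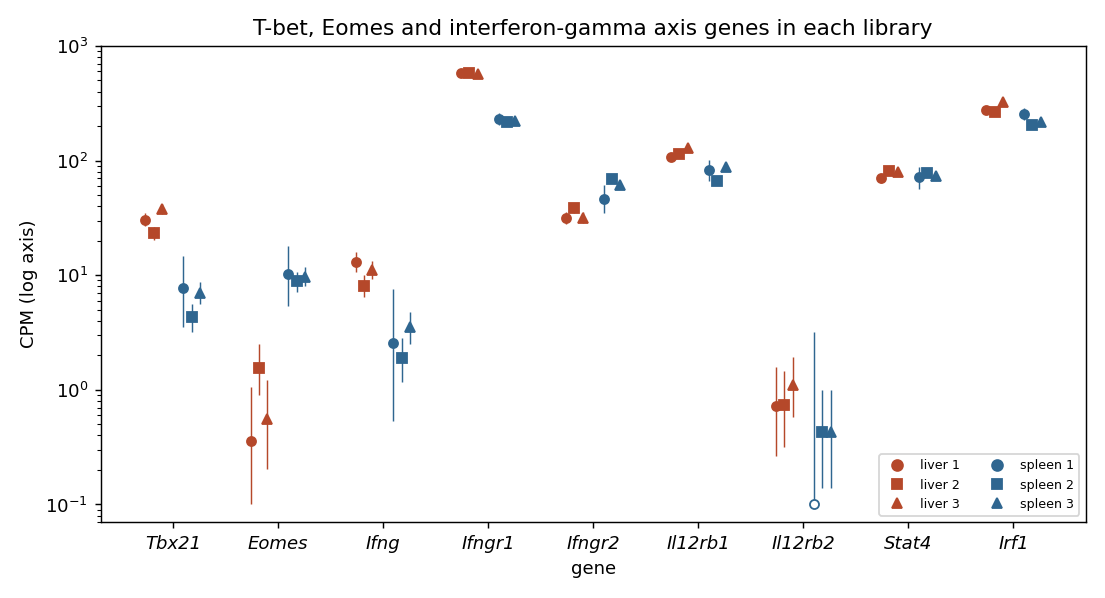
CPM of the 9 genes in each of the 6 libraries on a log axis; vertical lines are exact Poisson limits at 95%, which cover counting error only and are drawn no lower than 0.1 CPM, and the open symbol at the bottom marks a count of 0. Tbx21 and Ifng sit higher in liver, Eomes sits at or below 1.56 CPM in liver and at or above 8.83 CPM in spleen, and Stat4 overlaps between the tissues.

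Tbx21, which encodes T-bet, was at 30.5, 23.2 and 37.6 CPM in liver 1, liver 2 and liver 3, against 7.75, 4.28 and 7.01 CPM in spleen 1, spleen 2 and spleen 3. The lowest liver library was thus above the highest spleen library. The log2 fold change of liver over spleen was 2.38 ± 0.26 (SE; edgeR adjusted p = 4.49e-06), with group means of 30.4 ± 7.20 and 6.35 ± 1.82 CPM (SD, n = 3 each). The spleen 1 value rests on 9 counts, with a counting interval of 3.54 to 14.7 CPM.

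Eomes, the T-box relative of T-bet that is best known from NK and memory CD8 T cells, went the other way. It was at 0.361, 1.56 and 0.556 CPM in liver and at 10.3, 8.83 and 9.74 CPM in spleen. The spleen libraries were close to each other, while the liver values rest on 3, 17 and 6 counts. The log2 fold change was -3.46 ± 0.47 (SE; edgeR adjusted p = 4.41e-05), with a 95% interval from -4.44 to -2.47, and without liver 2, the liver library with the most Eomes, it was -4.30. With no filter it was -3.44 ± 0.45 (SE; edgeR adjusted p = 1.70e-12). That fit gave a smaller edgeR adjusted p for every called member, such as 4.79e-21 for Tbx21. The smaller p is thus not particular to Eomes. Fold changes and SE hardly moved, with Tbx21 at 2.39 ± 0.24 there and 2.38 ± 0.26 in the main fit. The smaller p-values therefore reflect the degrees of freedom that fit assumed. They are no stronger evidence than those of the main fit.

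Because a ratio of counts within a library does not depend on scaling, Tbx21 was also set against Eomes library by library. The count ratio of Tbx21 to Eomes was 84.7, 14.9 and 67.7 in liver, against 0.750, 0.485 and 0.719 in spleen. On the log2 scale the ratio was higher in liver by 6.10, and by 6.89 without liver 2. The exact two-sided permutation test over 3 against 3 libraries gave p = 0.1, the smallest it can give, and an adjusted p of 0.15 over the 3 ratios tested. Per kilobase of exon, the 2 transcripts were at about equal levels in spleen (ratios of 1.11, 0.720 and 1.07), whereas in liver Tbx21 exceeded Eomes by ratios of 126, 22.1 and 100.4.

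**Figure D2:**
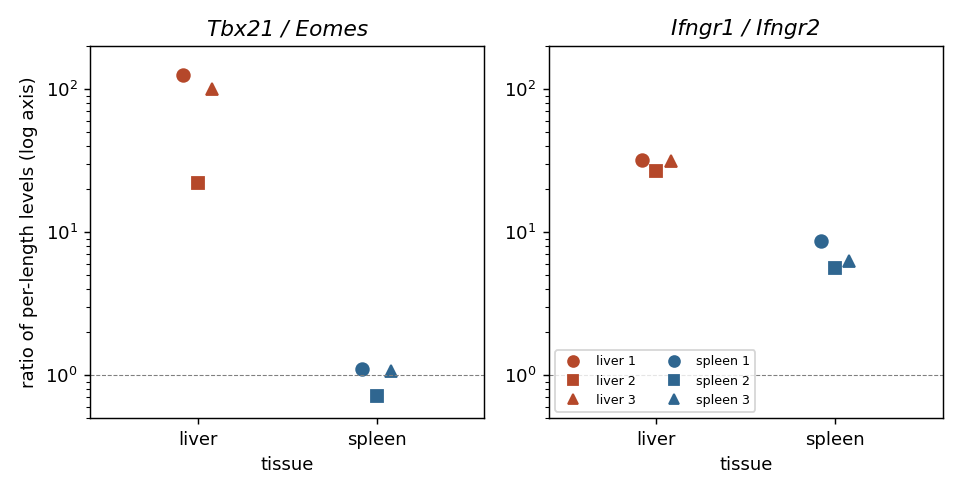
Ratio of per-length levels within each library, on a log axis, for Tbx21 over Eomes (left) and Ifngr1 over Ifngr2 (right); each symbol is 1 library and the dashed line marks a ratio of 1. Spleen ratios of Tbx21 to Eomes lie between 0.720 and 1.11 and liver ratios between 22.1 and 126, and the receptor ratios lie between 5.58 and 8.68 in spleen and between 26.7 and 31.7 in liver.

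Ifng, which encodes the cytokine itself, was at 13.1, 8.07 and 11.2 CPM in liver and at 2.58, 1.89 and 3.50 CPM in spleen. The groups did not overlap, although the spleen 1 value is only 3 counts, with a counting interval of 0.532 to 7.55 CPM. The log2 fold change was 2.0 ± 0.35 (SE; edgeR adjusted p = 0.000621). Within liver, the library with the least Tbx21, liver 2, also had the least Ifng and Irf1 and the most Eomes of the liver libraries; this describes 3 libraries only.

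Transcripts of the 2 interferon-gamma receptor chains moved in opposite directions. Ifngr1, the ligand-binding chain, was at 575, 582 and 569 CPM in liver and at 229.8, 217 and 222 CPM in spleen. The libraries of a tissue lay close together, and the log2 fold change was 1.37 ± 0.09 (SE; edgeR adjusted p = 2.68e-08). Ifngr2, the chain that carries the signal to Jak2, was at 31.9, 38.2 and 31.9 CPM in liver and at 46.5, 68.4 and 61.5 CPM in spleen. It was lower in liver in all 3 libraries, by a log2 fold change of -0.84 ± 0.15 (SE; edgeR adjusted p = 0.000669). The counting interval of spleen 1, 34.9 to 60.6 CPM, took in the liver 2 value. The count ratio of Ifngr1 to Ifngr2 was 17.05 ± 1.58 in liver and 3.91 ± 0.921 in spleen (SD, n = 3 each), a difference of 2.15 on the log2 scale (exact permutation p = 0.1, adjusted p = 0.15 over the 3 ratios).

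Of the IL-12 receptor chains, the shared chain Il12rb1 was the more abundant and differed between the tissues. Il12rb1, which also forms part of the IL-23 receptor, was at 108, 115 and 128 CPM in liver and at 82.6, 66.2 and 87.9 CPM in spleen. The groups did not overlap and the log2 fold change was 0.58 ± 0.12 (SE; edgeR adjusted p = 0.00256). Il12rb2, the chain that makes the receptor specific for IL-12, had 6, 8 and 12 counts in liver and 0, 5 and 5 counts in spleen. It stayed under the filter on low counts. Its pooled rate was 0.866 CPM in liver and 0.408 CPM in spleen, a ratio of 2.12. The exact 95% interval of 0.991 to 4.94 covers counting error only. It just includes equal rates, so a difference was not detected on these few counts. With no filter its log2 fold change was 1.14 ± 1.03 (SE; edgeR adjusted p = 0.543). The 0 counts of spleen 1 have a two-sided exact 95% upper limit of 3.18 CPM there, and 3 counts would be 2.58 CPM. With 1 count added to each gene, the ratio of Il12rb2 to Il12rb1 was 0.00811 in liver and 0.00797 in spleen on average (exact permutation p = 0.9, adjusted p = 0.9 over the 3 ratios), but the spleen 1 value of 0.0103 rests on the added count.

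Stat4, the transducer of the IL-12 signal, was at 69.9, 81.1 and 78.7 CPM in liver and at 71.4, 78.1 and 73.0 CPM in spleen. The tissues overlapped, and the log2 fold change was 0.04 ± 0.11 (SE; edgeR adjusted p = 0.873), with a 95% interval of -0.20 to 0.28. Irf1 was at 279, 264 and 327 CPM in liver and at 254.8, 204 and 218 CPM in spleen. The lowest liver library lay just above the highest spleen library, spleen 1, whose counting interval of 227 to 286 CPM took in liver 1 and liver 2. The log2 fold change of Irf1 was 0.38 ± 0.11 (SE; edgeR adjusted p = 0.0214). This call was lost without liver 1, liver 3, spleen 2 or spleen 3, where edgeR adjusted p was between 0.0525 and 0.158, and without spleen 1 the log2 fold change was 0.46 (edgeR adjusted p = 0.00614).

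**Figure D3:**
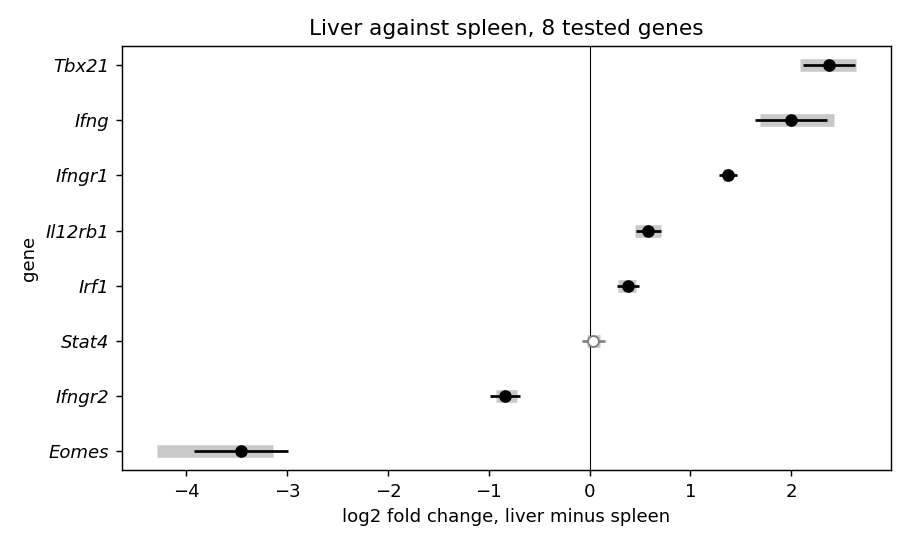
Log2 fold change of liver over spleen for the 8 tested genes, with SE bars; filled points passed the edgeR threshold, the open point did not, and grey bars span the values under all alternative settings. Eomes and Ifngr2 lie on the spleen side, Stat4 at 0.04, and the other genes on the liver side, with Tbx21 at 2.38.

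Without the shallow library spleen 1 the same 7 members were called in the same directions: Tbx21 at 2.43, Ifng at 1.99, Ifngr1 at 1.39, Il12rb1 at 0.61, Irf1 at 0.46, Ifngr2 at -0.93 and Eomes at -3.42 on the log2 scale. Stat4 was then at 0.02 (edgeR adjusted p = 0.919).

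Compared per kilobase of exon, with exon lengths from GENCODE M21, the level of Ifngr1 was the highest of the set in both tissues, at 273 ± 3.15 CPM per kilobase in liver and 106 ± 2.98 in spleen (SD, n = 3 each). Its level exceeded those of 98.4% of the 11053 tested genes with a length in liver and of 95.2% in spleen. Irf1 (86.8 and 67.6 CPM per kilobase), Il12rb1 (40.8 and 27.5) and Stat4 (24.3 and 23.6) followed in liver and spleen, and in spleen the ranges of Il12rb1 and Stat4 overlapped. Below them the order of levels differed between the tissues. In liver, Tbx21 (12.2), Ifngr2 (9.17) and Ifng (8.94) came next with overlapping ranges of neighbours, and Il12rb2 (0.225) and Eomes (0.223) were last and overlapped. In spleen, Ifngr2 (15.8) was followed by Eomes (2.61), Tbx21 (2.55) and Ifng (2.20), whose neighbouring ranges overlapped, and by Il12rb2 (0.0752). The per-length level of Eomes was above that of 22.1% of tested genes in spleen and of 2.08% in liver.

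Markers of NK cells and type 1 innate lymphoid cells (ILC1), which use T-bet and Ifng themselves, were called in part in the direction of Tbx21 and Ifng. Eomes went the other way. Of 20 such markers 11 could be tested; 5 were higher in liver, 1 was higher in spleen and 5 did not pass, beside 9.28% and 6.90% of all tested genes. The median log2 fold change of the 11 was 1.53, where that of all tested genes was -0.0051. Among those that did not pass were the adaptor genes Tyrobp (-0.11 ± 0.34) and Fcer1g (0.09 ± 0.40), log2 fold changes with SE. The summed level of all 20 markers was between 76.0 and 88.4 CPM in liver and between 43.9 and 57.6 CPM in spleen. The granzyme gene Gzma was at 12.6, 12.5 and 14.7 CPM in liver against 0.861, 1.20 and 2.14 CPM in spleen, and Itga2, the integrin chain CD49b, was at 21.4, 24.7 and 19.9 against 4.30, 6.08 and 10.1 CPM. The NK receptors named next were at or below 4.17 CPM in every library, where Ifng was between 8.07 and 13.1 CPM in liver. Klrd1 was between 2.3 and 3.8 CPM in liver and between 0 and 0.6 CPM in spleen (2.99 ± 0.68). Klrb1c (NK1.1) was between 3.49 and 4.17 CPM in liver and between 0 and 1.54 CPM in spleen, Ncr1 (NKp46) was between 0.842 and 2.02 CPM in liver and between 0 and 0.0857 CPM in spleen, and Klra4 and Klra8 were at 0 in all libraries. The marker higher in spleen, as Eomes was, was Cd160, a receptor of NK and CD8 T cells, at 6.49, 5.41 and 3.89 CPM in liver and 13.8, 20.5 and 17.5 CPM in spleen. The part of such cells in the values of Tbx21, Ifng and Eomes was not tested. In bulk RNA, fewer cells of a type and less RNA per cell cannot be told apart.

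**Figure D4:**
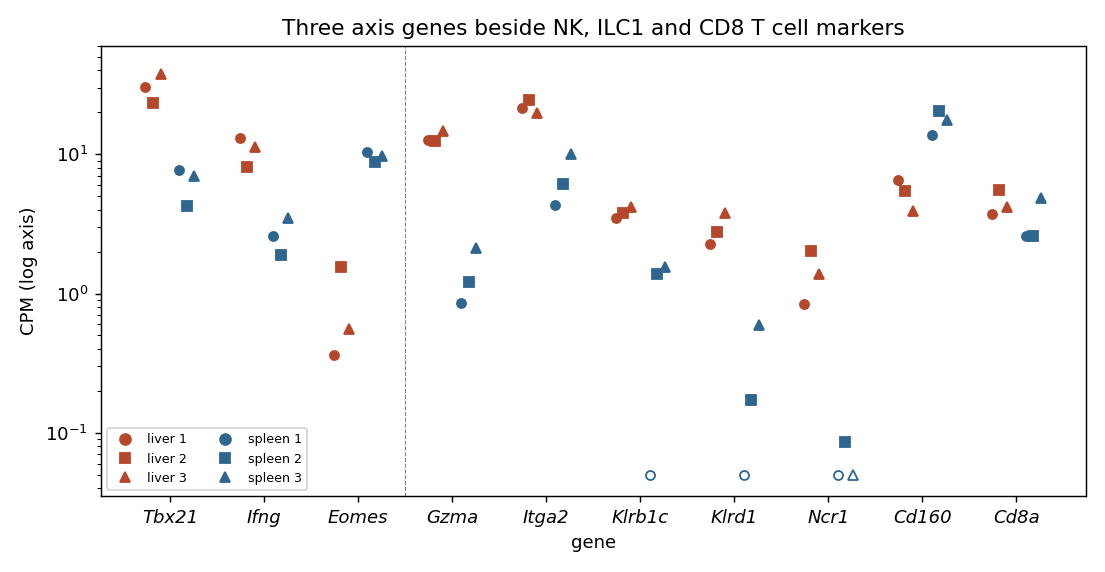
CPM of Tbx21, Ifng and Eomes (left of the dashed line) and of markers of NK cells, ILC1 and CD8 T cells (right) in each library, on a log axis; open symbols at the bottom are values of 0. Gzma, Itga2, Klrb1c, Klrd1 and Ncr1 are higher in liver libraries, Cd160 is higher in spleen libraries and Cd8a overlaps.

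Of the CD8 T cell markers, neither passed: Cd8a was between 3.73 and 5.50 CPM in liver and between 2.57 and 4.87 CPM in spleen, and the sum with Cd8b1 was between 9.02 and 14.9 CPM and between 9.43 and 13.2 CPM. The NKT marker Zbtb16 was under the filter, at or below 1.10 CPM in each library. Markers of cells that are common in spleen were higher there, in the same direction as Eomes and Ifngr2. This held for 4 of 9 tested B cell markers (summed level 145 to 171 CPM in liver, 231 to 328 CPM in spleen), 7 of 8 macrophage markers (73.4 to 83.3 against 119 to 189 CPM) and 9 of 10 granulocyte markers (271 to 306 against 497 to 838 CPM). It also held for 9 of 9 erythroid markers (26.0 to 34.4 against 237 to 323 CPM), and no marker of these 4 lists was higher in liver. The shares of all tested genes were 6.90% higher in spleen and 9.28% higher in liver. Cd79a, a B cell receptor subunit, was between 34.7 and 46.4 CPM in liver and between 51.6 and 75.4 CPM in spleen, and Lyz2, the lysozyme of myeloid cells, between 57.4 and 64.0 CPM and between 68.9 and 118 CPM. Hepatocyte markers had 1 of 3 tested genes higher in each tissue (summed level 14.8 to 22.5 CPM in liver, 18.2 to 24.96 CPM in spleen), with Alb (albumin) between 2.20 and 7.32 CPM in liver and at 0 in spleen. The part of these cells in the values of Eomes and Ifngr2 was not tested.

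Most tested genes of a list expressed by type 1 effector lymphocytes were higher in liver, as Tbx21 was. This list, like the 9 genes and every other list here, was chosen with earlier results of these data known. The counts of all of them are therefore a description. Of 19 tested genes of this list 13 were higher in liver, 1 was higher in spleen and 5 did not pass, beside 9.28% and 6.90% of all tested genes. The list had a median log2 fold change of 1.64, where the median of all tested genes was -0.0051. Cxcr3, the chemokine receptor that T-bet induces, was at 190, 151 and 228 CPM in liver and 53.4, 40.9 and 55.2 CPM in spleen. As for Tbx21, liver 2 was the lowest of the liver libraries and spleen 2 the lowest of the spleen libraries. Gzmb, the protease granzyme B (log2 fold change 2.74 ± 0.12), the chemokine Ccl5 (2.80 ± 0.16) and Prdm1, which encodes Blimp-1 (1.99 ± 0.13), had the smallest p of the list. Fasl, the death ligand, was the gene higher in spleen (-1.38 ± 0.45 (SE), edgeR adjusted p = 0.0433), a call lost whichever single library was left out. With all libraries thinned to the depth of spleen 1, 8 genes of this list were higher in liver. Of all genes 596 of 9155 tested then were, against 1087 of 11716 in the main fit. The fall thus includes genes that no longer passed the filter.

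Among 8 genes that carry or check the interferon-gamma signal the median log2 fold change was 0.012. The only one called higher in spleen was Socs1, the feedback inhibitor of Jak kinases, at 40.4, 33.0 and 47.8 CPM in liver and 74.0, 68.3 and 72.6 CPM in spleen (-0.82 ± 0.14 (SE), edgeR adjusted p = 0.000592). The kinase genes Jak1 (-0.18 ± 0.10 (SE), edgeR adjusted p = 0.252) and Jak2 (0.16 ± 0.10 (SE), edgeR adjusted p = 0.355) did not pass.

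Genes that interferon-gamma is known to induce leaned towards liver: of 30 tested, 14 were higher in liver, 1 was higher in spleen and 15 did not pass. Among all tested genes 9.28% were called higher in liver and 6.90% in spleen. The list median log2 fold change was 0.35, where that of all tested genes was -0.0051. The guanylate-binding protein genes Gbp3 (1.30 ± 0.13) and Gbp7 (0.84 ± 0.09), the adhesion molecule Icam1 (0.98 ± 0.14) and the transcription factor Irf8 (0.77 ± 0.11) had the smallest p. Ciita, the master activator of MHC class II genes, was the gene higher in spleen (-2.24 ± 0.42 (SE), edgeR adjusted p = 0.000940), at 3.49, 3.21 and 1.30 CPM in liver and 19.8, 7.37 and 14.2 CPM in spleen; B cell and macrophage markers were higher in spleen too, and their part in this value was not tested. The count higher in liver was sensitive: it was 6 without spleen 2, 9 without liver 3, 9 with upper-quartile scaling and 6 at equal depth. In the same order, 722, 944, 954 and 596 genes were called higher in liver, of 11942, 12048, 11716 and 9155 tested. In the main fit 1087 of 11716 were. The chemokine gene Cxcl9 and Ido1, both strongly interferon-gamma-induced in myeloid cells, were at 0 in every library.

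**Figure D5:**
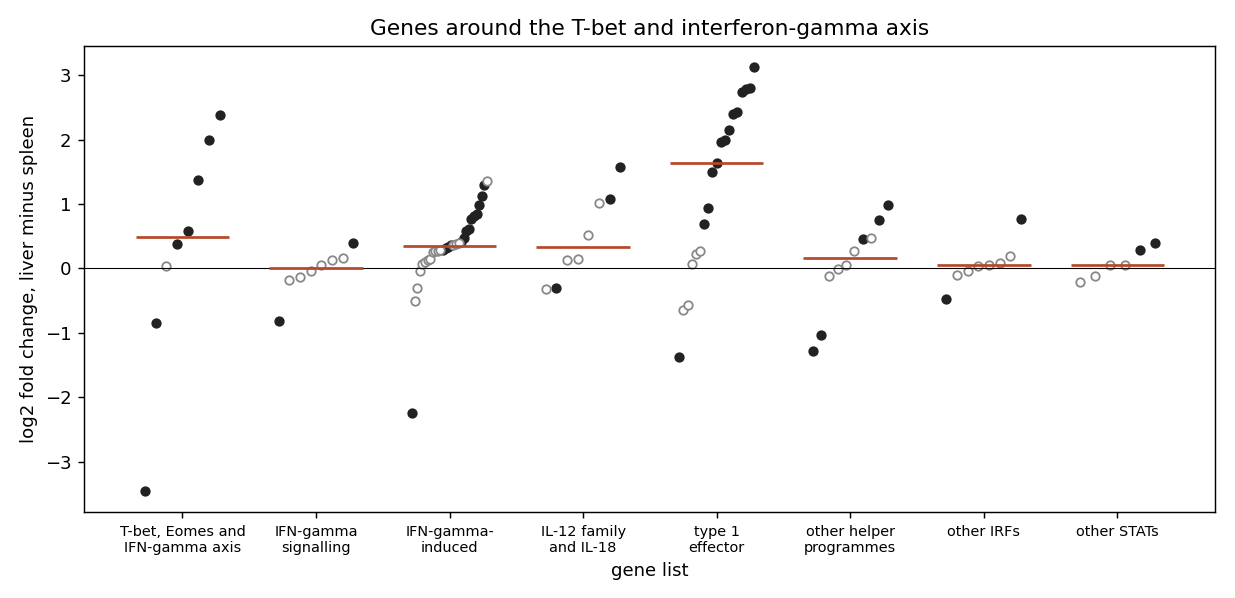
Log2 fold change of liver over spleen for the tested genes of each list; filled points passed the edgeR threshold, open points did not, and red bars are list medians. The type 1 effector list has a median of 1.64 and the signalling list one of 0.012, and Eomes is the lowest point.

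Among the cytokines and receptors that act beside IL-12, both chains of the IL-18 receptor were higher in liver. Il18r1 was at 83.0, 90.7 and 93.4 CPM against 29.3, 39.2 and 50.1 CPM in spleen (1.08 ± 0.15), and Il18rap at 21.0, 22.6 and 18.2 against 0.861, 7.80 and 7.61 CPM (1.58 ± 0.28). They were the 2 genes of the 8 tested in this list that were higher in liver, where 9.28% of all tested genes were. Il27ra, a receptor chain for IL-27, was the 1 higher in spleen (-0.30 ± 0.09 (SE), edgeR adjusted p = 0.0296), a count that ranged from 0 to 2 over all settings, and 5 did not pass, among them Il6st (-0.31 ± 0.11 (SE), edgeR adjusted p = 0.0587); the list median was 0.33. Il12b, a subunit of IL-12 itself, was at 0 in every library.

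Genes of other helper programmes went both ways, with 3 of 10 tested higher in liver, 2 higher in spleen and 5 not passing, and a median of 0.16. Bcl6, the factor of follicular cells (-1.29 ± 0.15), and the cytokine gene Tnf (-1.04 ± 0.19) were higher in spleen, and Maf (0.75 ± 0.11), Rora (0.98 ± 0.22) and Batf (0.46 ± 0.13) were higher in liver. The liver count was 2 to 4 with a library left out, 5 with limma-voom and 1 at equal depth. Of the 8 other interferon regulatory factors, Irf8 was higher in liver and Irf4 higher in spleen (-0.47 ± 0.12), a spleen count that was 0 without liver 2 or spleen 3, and 6 did not pass (median 0.051). A count of 1 in 8, as in this list and for spleen in the signalling and IL-12 lists, is near the share of all tested genes called (9.28% in liver, 6.90% in spleen). Among the 6 other Stat genes the median was 0.050; Stat5b, a transducer of IL-2 signals, was higher in liver (0.28 ± 0.09 (SE), edgeR adjusted p = 0.0425), a call lost at least without spleen 2.

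The genes whose log2 CPM over the 6 libraries followed a member most closely were sought among 9021 or 9022 tested genes with at least 10 CPM in the higher tissue. They were Tigit, Zbtb42 and Rpa1 for Tbx21 (Pearson's r between 0.996 and 0.998), Rcbtb1, Parp8 and Polrmt for Eomes (0.995 to 0.998), Copa, Sgms1 and Mbd2 for Ifng (0.992 to 0.996) and Rhoc, Ankle1 and Lsr for Il12rb2 (0.997 to 0.999). The tissue difference and the shallow depth of spleen 1 are shared by these points, and with 6 libraries values this high are a description only. Tigit, an inhibitory receptor of T cells, averaged 203 CPM in liver and 70.0 CPM in spleen.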

How the data were processed

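RNA sequencing counts were available for 3 liver and 3 spleen Treg libraries, numbered in accession order within a tissue. Raw counts of reads, 1 row for each gene symbol, were deposited; HISAT2 2.1, HTSeq 0.11 and genome build mm9 are named, per the submitters' processing notes. Neither annotation nor strand setting is stated, so that reads of overlapping or antisense genes may be mixed. Summary rows that name no gene held 25.5% to 29.0% of a library's counts and were left out. The genes and lists were chosen with earlier results of these data known.

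Counts were filtered with filterByExpr (11716 of 23366 genes), TMM-scaled and tested by edgeR 4.0.16 in R 4.3.3 (quasi-likelihood F test, liver minus spleen, no covariates, adjusted over all tested genes); the SE is the log2 fold change divided by the root of F. The biological coefficient of variation was 0.129. In spleen 1, 3 counts (the floor) equal 2.58 CPM; elsewhere they equal 0.256 to 0.361 CPM. Every library pair differed beyond sampling noise (lowest chi-square per df 4.56).

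Named genes are the 9 members, the 4 smallest p of each of 7 pathway lists, the 2 most abundant genes of each marker list, and the 3 genes most like Tbx21, Eomes, Ifng and Il12rb2; not all are printed, 1 gene of these lists is not reported here, and Batf, Cd4, Ciita, Ctla4, Cxcl9, Fasl, Fcer1g, Folr4, Gzma, Ido1, Il12b, Il2ra, Klra4, Klra8, Klrb1c, Klrd1, Ncr1 and Tyrobp were named after their values were seen. Alternatives were DESeq2 1.42.0 size factors and Wald test, upper-quartile scaling, limma 3.58.1 voom, a robust fit, other filters, removal of other cell types' markers, equal depth by 1 random thinning, a block on sex-linked transcripts, a minimum log2 fold change of 1, and leaving out each library. The block on sex-linked transcripts split the libraries into 3 classes and left 2 residual degrees of freedom.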

Additional observations from a re-analysis of the deposited data

How the results depend on the processing

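Tbx21, Eomes, Ifng and Ifngr1 kept their direction and their call under every alternative that could test them, 17 for each but 16 for Eomes, which fell under the filter at equal depth. Their log2 fold changes ranged from 2.09 to 2.64, from -4.30 to -3.14, from 1.69 to 2.42 and from 1.33 to 1.39. A minimum absolute log2 fold change of 1 ended, by construction, the calls of Ifngr2 (-0.84), Il12rb1 (0.58) and Irf1 (0.38), leaving 3 members higher in liver and 1 in spleen, and 428 and 267 of all genes. At equal depth Irf1 was at 0.33 (edgeR adjusted p = 0.0739) and 1 member was higher in spleen. Of the 9155 genes then tested, 596 were called higher in liver and 419 higher in spleen. With a library left out, Irf1 ranged from 0.29 to 0.46, and all genes called from 722 to 1245 in liver and from 486 to 989 in spleen, lowest without spleen 2. With limma-voom 1243 genes were higher in spleen. Stat4, which did not pass, changed sign with upper-quartile scaling (-0.0087) and at equal depth (-0.025), and ranged from -0.00054 to 0.10 with a library left out. The log2 ratio of Il12rb2 to Il12rb1 ranged from -0.15 to 0.26. The cause was not tested. Of 238 list counts under alternatives, 189 stayed within 1.5 times, 43 were lower and 6 higher. No scaling moved the median of all genes by over 0.1. No paired analysis was possible because the labels pair no libraries. The depth of spleen 1 limits Ifng and Il12rb2 there to 3 and 0 counts.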
